A study of Mus musculus with 8 samples.

Results

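The genes described here encode receptors of the ERBB family, the ligands that activate them and a cytoplasmic inhibitor of the receptors. They were taken from the authors' deposited table of Yoda1 against DMSO as the rows whose symbol is Egfr, Erbb2, Erbb3, Areg, Ereg, Hbegf, Btc, Nrg1, Tgfa or Errfi1. Of these 10 genes, 9 had a row among the 20972 rows of the table. Tgfa had no row under that symbol and was not analysed here. All 9 passed the authors' filter on low values and had an adjusted p, as did 14653 rows in all.

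The cells were MC3T3-E1 subclone 14, a clonal osteoblastic line derived from mouse calvaria, so each value describes a single clone. Cultures at about 80% confluence, in α-MEM with 10% serum, received 10 µM Yoda1, which activates the calcium-permeable channel PIEZO1, or DMSO, in which Yoda1 is dissolved, and RNA was sequenced after 24 h. The labels list 4 samples per group and leave out 1 of each for batch variation, so that 3 DMSO and 3 Yoda1 libraries remain. Since no label speaks of separate cultures, the p-values cover the spread between these libraries alone, and that spread may be technical.

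The ERBB receptors are tyrosine kinases that work in pairs. EGFR binds amphiregulin, epiregulin, heparin-binding EGF-like growth factor, betacellulin and TGF-alpha, ERBB3 binds neuregulins but has little kinase activity of its own, and ERBB2 has no known ligand and serves as the preferred partner of the others. The ligands are made as membrane-anchored precursors that are released by metalloproteases, and the active receptors signal through RAS and ERK and through PI3K and AKT. In the osteoblast lineage, EGFR signalling is known to favour growth of progenitors over their maturation, and amphiregulin is a known target of parathyroid hormone.

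The promoters of Areg and Errfi1 are shown because both genes rose and both windows hold the same pair of motifs, and that of Btc because it lies next to Areg on chromosome 5 and has none of them. The sequences are from RefSeq, build GRCm38.p6, 250 bases before to 50 bases after the annotated start, on the strand of the gene. Capitals mark the cAMP response element (CRE) octamer TGACGTCA, which CREB-family factors bind, and a TATA box, TATAAA. The Areg window is chr5:91139349-91139648 (+ strand), the Errfi1 window chr4:150854820-150855119 (+ strand) and the Btc window chr5:91402945-91403244 (- strand).
Areg: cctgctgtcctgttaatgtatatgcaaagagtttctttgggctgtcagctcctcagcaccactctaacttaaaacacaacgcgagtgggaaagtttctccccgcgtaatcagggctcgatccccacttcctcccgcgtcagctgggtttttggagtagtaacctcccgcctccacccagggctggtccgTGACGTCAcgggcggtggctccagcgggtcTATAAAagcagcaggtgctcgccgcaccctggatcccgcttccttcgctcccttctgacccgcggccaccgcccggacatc
Errfi1: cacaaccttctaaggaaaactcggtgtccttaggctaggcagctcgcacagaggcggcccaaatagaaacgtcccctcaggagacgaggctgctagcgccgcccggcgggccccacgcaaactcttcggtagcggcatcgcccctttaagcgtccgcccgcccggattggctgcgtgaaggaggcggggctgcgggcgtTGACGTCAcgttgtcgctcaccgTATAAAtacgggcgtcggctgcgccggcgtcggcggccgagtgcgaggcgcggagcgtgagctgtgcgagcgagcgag
Btc: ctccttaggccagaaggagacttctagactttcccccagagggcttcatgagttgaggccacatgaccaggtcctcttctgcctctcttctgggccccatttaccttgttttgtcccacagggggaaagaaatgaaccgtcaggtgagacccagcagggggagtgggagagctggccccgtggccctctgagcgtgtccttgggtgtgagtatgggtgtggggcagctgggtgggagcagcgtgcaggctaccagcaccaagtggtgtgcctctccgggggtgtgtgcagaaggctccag

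The CRE octamer began 61 bases before the start of Areg and 51 bases before that of Errfi1, and the TATA box began 31 and 28 bases before the start. The octamer was searched on both strands, and its match is the same on each. Over all 32851 promoters of the RefSeq table it occurred in 1.79%, and TATAAA, searched on the strand of the gene, in 8.32%. RefSeq gives Errfi1 a second, upstream start, whose window held neither. The AP-1 heptamer TGANTCA, searched on both strands, was present in 7.81% of promoters. It was in none of the 7 windows searched, which belong to 6 members (Egfr, Erbb2, Areg, Btc, Tgfa and Errfi1). No window of Hbegf, Ereg, Nrg1 or Erbb3 was searched, so the motif results do not cover these members. The TEAD hexamer GGAATG, searched on both strands and present in 14.7% of promoters, was in the window of Erbb2 and in the upstream window of Errfi1. No match overlapped another. The motifs were chosen after these windows had been read, and a match is a stretch of letters and not a measured binding site.

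After 24 h of Yoda1, 3 of the 5 measured ligand genes were higher (Areg, Ereg and Hbegf), 1 was lower (Nrg1), and the receptor inhibitor gene Errfi1 was higher, while none of the 3 receptor genes passed the test. By the DESeq2 test of the authors' deposited table, at an adjusted p under 0.05, 4 of 9 members were thus higher and 1 was lower. The background is high: 44.5% of all tested genes passed, 22.4% higher and 22.1% lower. The authors' own classes, which also require a log2 fold change (called the log2 change from here on) beyond 0.5 in size, held the same 4 and 1 members, against 13.8% and 13.3% of tested genes classed as higher and lower. The median log2 change of the 9 members was 0.10, against -0.01 over all tested genes. With the fold changes shifted to equal summed counts of the groups, which raises each by 0.11 because -0.11 is subtracted, the split over all genes moved from 3285 higher and 3233 lower to 4138 and 2500. In RNA from whole cultures, fewer cells expressing a gene and less of its RNA per cell cannot be told apart.

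**Figure D1:**
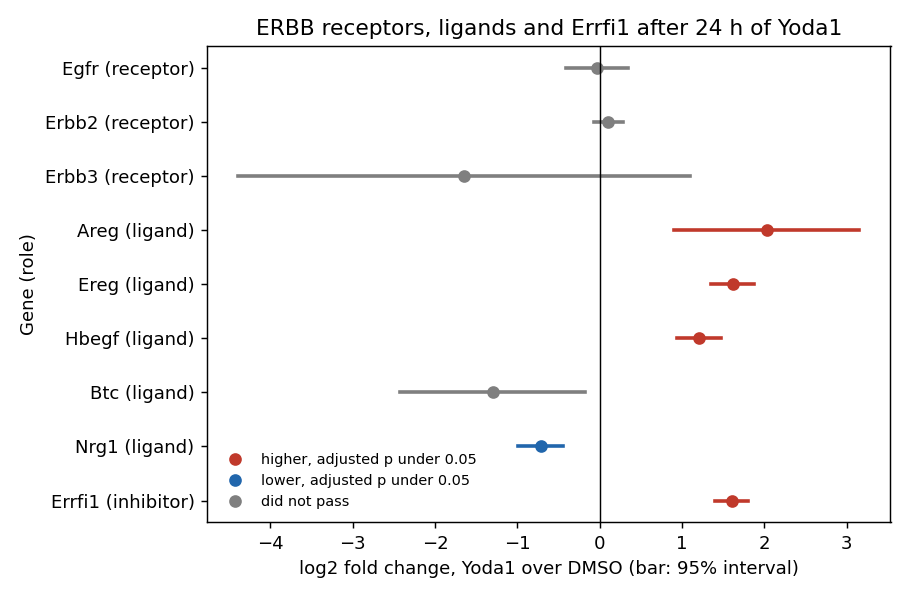
The horizontal axis is the deposited log2 change of Yoda1 over DMSO with its 95% interval, and each line is a gene with its role. The intervals of Areg, Ereg, Hbegf and Errfi1 lie above 0, those of Nrg1 and Btc lie below 0, and those of the 3 receptors cross 0. Btc did not pass at its adjusted p, for which the interval is not adjusted.

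Values per library are not analysed here, since the table gives a single mean over both groups and a fold change for each gene. For equal groups these imply a mean for each, which is given below as an implied level and carries no error of its own. The error of each comparison is the standard error (SE) of the deposited log2 change, or the 95% interval of the fold computed from it.

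Among the receptors, Egfr had an implied level of 483.7 normalized counts with DMSO and 472.7 with Yoda1. Its log2 change by the authors' deposited table was -0.03 (SE 0.19, DESeq2 adjusted p = 0.914), a ratio of 0.977 with an interval of 0.752 to 1.27, and its sign turned with equal summed counts. A fall to a ratio of 0.752 and a rise of 1.27-fold were therefore both still within the interval. Erbb2, the partner receptor, was implied at 1243 normalized counts with DMSO and 1334 with Yoda1. The authors' deposited table gives it a log2 change of 0.10 (SE 0.09, DESeq2 adjusted p = 0.386), a ratio of 1.07 with an interval of 0.950 to 1.21. It passed the threshold only with equal summed counts (log2 change 0.21, adjusted p = 0.0477, range over the alternatives 0.0477 to 1). Erbb3, the neuregulin receptor, had a mean of 2.78 normalized counts by the authors' deposited table, and 4.07% of tested genes had a lower mean. Its ratio of 0.319 had an interval of 0.0477 to 2.14 (DESeq2 adjusted p = 0.363), so no difference was detectable at this level.

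Ereg, which encodes epiregulin, rose from an implied 152.3 to 467.0 normalized counts. Its log2 change by the authors' deposited table was 1.62 (SE 0.13, DESeq2 adjusted p = 3.88e-32), or 3.07-fold with an interval of 2.56 to 3.67. Of all tested genes, 2.76% had a larger log2 change. Hbegf, which encodes heparin-binding EGF-like growth factor, rose from an implied 224.8 to 517.3 normalized counts. Its log2 change by the authors' deposited table was 1.20 (SE 0.14, DESeq2 adjusted p = 1.34e-17), or 2.30-fold with an interval of 1.92 to 2.77. The calls of Ereg and Hbegf passed every alternative run.

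Areg, which encodes amphiregulin, went from an implied 6.12 to 25.0 normalized counts, the largest fold of the members that passed and the least certain. The log2 change by the authors' deposited table was 2.03 (SE 0.57, DESeq2 adjusted p = 0.00140), or 4.08-fold with an interval of 1.87 to 8.90. Its mean of 15.6 normalized counts lay below that of most tested genes, 18.3% of which had a lower mean. The call was lost when a t distribution with 4 degrees of freedom was used (adjusted p = 0.0830) and in a test against a log2 change of 0.5 in size (adjusted p = 0.0753; range over the alternatives 0.000708 to 0.0830).

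Nrg1, which encodes neuregulin 1, was the member that fell, from an implied 615.3 to 373.7 normalized counts. The authors' deposited table gives a log2 change of -0.72 (SE 0.14, DESeq2 adjusted p = 9.25e-07), or 1.65-fold lower with an interval of 1.37 to 1.98. A lower log2 change was found in 14.2% of tested genes, and in the test against a log2 change of 0.5 in size Nrg1 did not pass (adjusted p = 0.652, range over the alternatives 6.71e-07 to 0.652). Btc, which encodes betacellulin, was implied at 19.4 normalized counts with DMSO and 7.86 with Yoda1. Its log2 change by the authors' deposited table was -1.30 (SE 0.57, DESeq2 adjusted p = 0.0520), just short of the threshold, at a ratio of 0.405 with an interval of 0.186 to 0.884 that is not adjusted for the number of genes.

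Errfi1, which encodes MIG6, a feedback inhibitor that binds the kinase domains of EGFR and ERBB2, rose from an implied 391 to 1188 normalized counts. Its log2 change by the authors' deposited table was 1.60 (SE 0.10, DESeq2 adjusted p = 5.41e-54), or 3.04-fold with an interval of 2.65 to 3.49. This was the most precise of the members' rises, and it passed every alternative run.

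**Figure D2:**
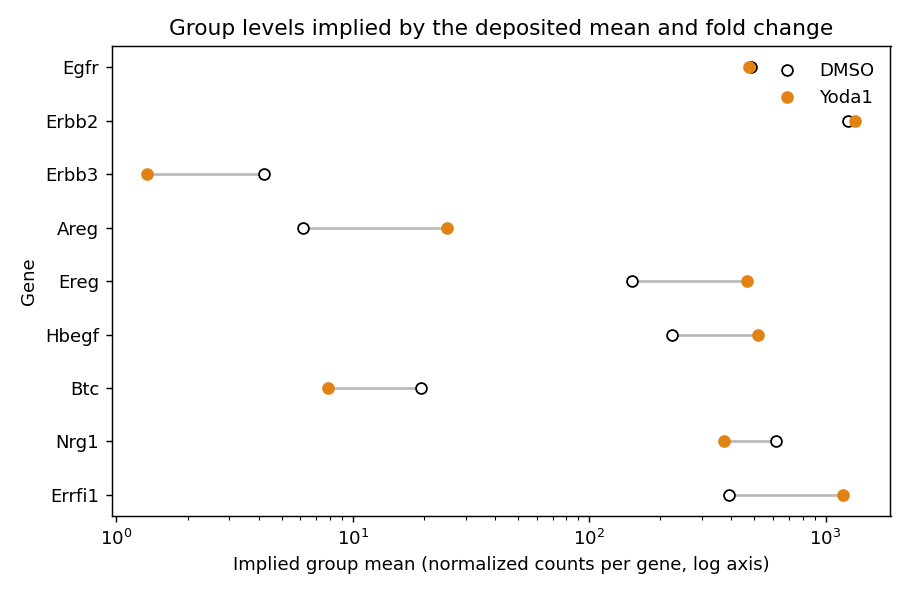
Each line is a gene, the horizontal axis is the implied mean in normalized counts on a log scale, open circles are DMSO and filled circles Yoda1. Errfi1, Ereg and Hbegf move to the right at levels between 152.3 and 1188, Areg, Btc and Erbb3 lie below 30, and the circles of Egfr and Erbb2 nearly coincide.

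Levels of different genes were compared per kilobase of transcript, using the longest coding transcript in GENCODE release M21. With DMSO, the implied level per kilobase was 248 normalized counts for Erbb2, 47.4 for Egfr and 0.701 for Erbb3. Among the ligands it was 114 for Nrg1, 94.7 for Hbegf, 36.9 for Ereg, 6.74 for Btc and 5.04 for Areg, so neuregulin led. With Yoda1 it was 218 for Hbegf, 113 for Ereg, 69.0 for Nrg1, 20.6 for Areg and 2.73 for Btc. Hbegf thus stood first with Yoda1 in place of Nrg1, and Areg and Btc exchanged the last places. Nrg1 has 12 coding transcripts and Egfr 3, so their values depend on the length chosen. With the median length, Egfr stood at 164 with DMSO and 161 with Yoda1, nearer to Erbb2 and still below it, and Nrg1 stood at 254 with DMSO and 154 with Yoda1, above Ereg in both groups, and Hbegf still led with Yoda1. Errors of these levels within a group could not be had, so neighbours in the order are not shown to differ.

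The precision of the members followed their level, as the plot of standard errors shows. The standard errors of the log2 change of Areg and Btc were 0.57 each, close to the median of 0.57 and 0.61 among tested genes whose mean lay within 1.1 times theirs. For Ereg, Hbegf and Nrg1 the standard errors of 0.13, 0.14 and 0.14 stood beside medians of 0.15, 0.14 and 0.13. Egfr departed from this, with 0.19 against a median of 0.13 over 615 genes of like mean.

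**Figure D3:**
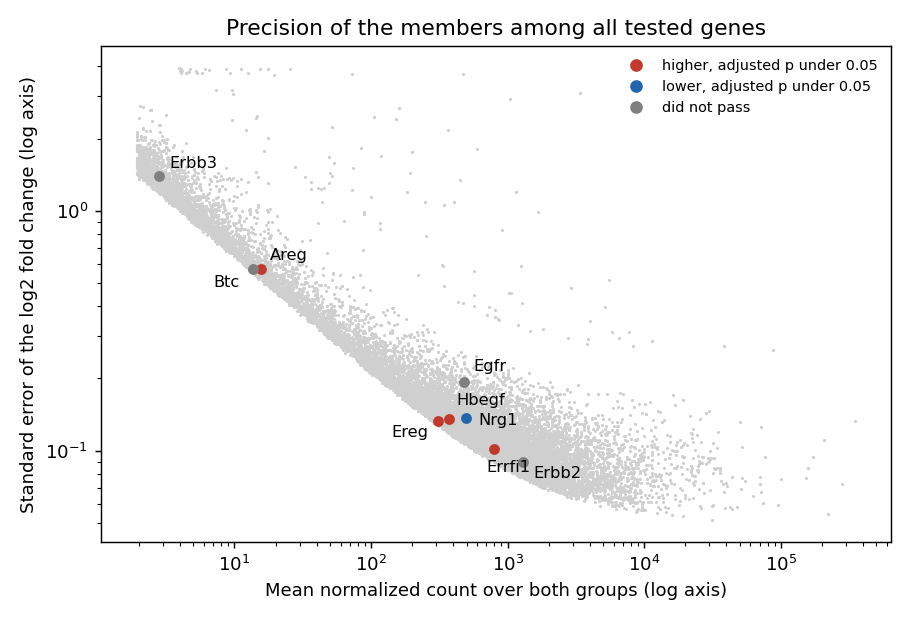
Grey points are all tested genes, with the mean normalized count on the horizontal axis and the standard error of the log2 change on the vertical axis, both on log scales, and coloured points are the members. The standard error falls from 1.40 for Erbb3 to 0.09 for Erbb2, and Egfr lies above most genes of its level.

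Ereg, Areg and Btc are neighbours on mouse chromosome 5, in the order Epgn, Ereg, Areg, Btc among coding genes in the RefSeq annotation of GRCm38.p6. Of these neighbours Ereg and Areg were higher, while Btc did not pass at an estimate below 0, and the difference between adjacent genes was not tested. Epgn, which encodes epigen, another EGFR ligand, had a mean of 2.02 normalized counts by the authors' deposited table. The authors' deposited table gives a log2 change of 1.36 with a standard error of 1.5 (DESeq2 adjusted p = 0.502), so it is not informative. Of the flanking genes, chosen after their values were seen, Mthfd2l on the side of Epgn had a log2 change of 0.28 (SE 0.16, DESeq2 adjusted p = 0.143) by the authors' deposited table. Beyond Btc, Parm1 had no adjusted p, Rchy1 stood at 0.21 (0.10, adjusted p = 0.0663), Odaph rose by 3.10 (0.45, adjusted p = 4.17e-11) and Cdkl2 was at -0.84 (0.16, adjusted p = 5.56e-07) on the log2 scale by the authors' deposited table, by DESeq2.

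**Figure D4:**
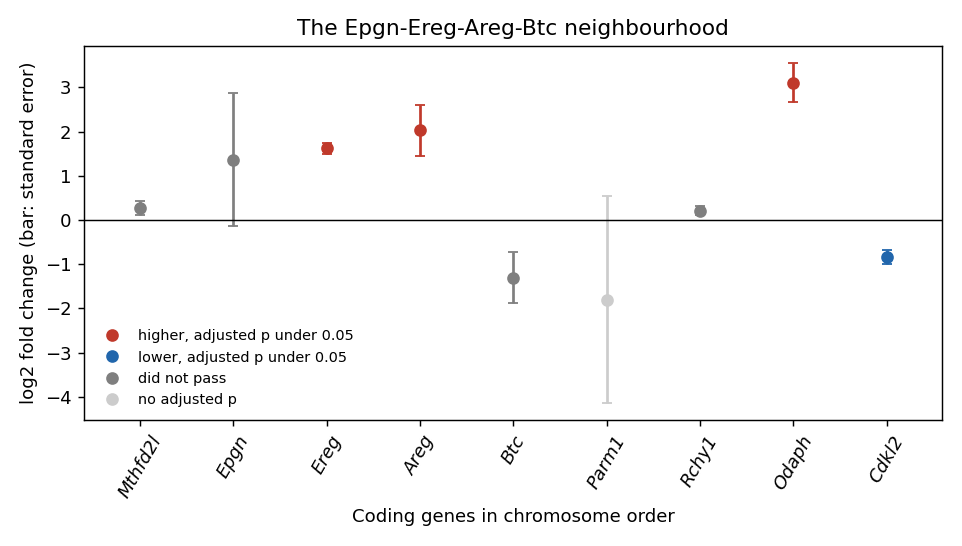
Coding genes are placed in chromosome order on the horizontal axis, and the vertical axis is the deposited log2 change with 1 standard error on each side. Ereg, Areg and Odaph lie above 0 and passed the test, Cdkl2 lies below 0 and passed, and Btc, between Areg and Parm1, did not pass.

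Other ERBB family genes added little. The prototype ligand gene Egf had a mean of 29.9 normalized counts and a log2 change of -0.68 (SE 0.42, DESeq2 adjusted p = 0.179) by the authors' deposited table. Nrg4 had a mean of 0.165 and no adjusted p, and Erbb4, Nrg2 and Nrg3 had no row under these symbols and were not analysed here.

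Genes that act around the receptors were read as 6 further lists, and each list held changes in both directions. Most of these genes had a mean of at least 100 normalized counts. With that filter 29.8% of tested genes were higher and 28.4% lower, more than the shares over all tested genes given for each list. Of 12 genes of ligand release, all tested, 8 were lower and 2 higher with a median log2 change of -0.27, against 22.1% and 22.4% over all tested genes. The largest falls were not in the main sheddase. Adam17, the protease that releases most of these ligands, had a log2 change of -0.08 (SE 0.09, DESeq2 adjusted p = 0.517) by the authors' deposited table. Nrdc, which encodes nardilysin, an HB-EGF-binding protein that aids shedding, was 2.70-fold lower (95% interval 2.18 to 3.36), and Timp3, an inhibitor of ADAM17 and other metalloproteases, was 2.63-fold lower (2.36 to 2.92) by the authors' deposited table. The list therefore holds an inhibitor of release among its largest falls. Adam12 (log2 change -0.58, SE 0.11) and the sheddase gene Adam10 (-0.28, 0.07) also fell by the authors' deposited table. Frmd8, whose product stabilises the iRhom-ADAM17 complex, was 1.99-fold higher (1.68 to 2.36), and Adam15 had a log2 change of 0.31 (0.09) by the authors' deposited table. The count of lower genes in this list was 3 with a t distribution and 3 with equal summed counts. Of all tested genes, 10% and 17.1% were lower under these settings.

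Among 22 genes that restrain, ubiquitinate or sort the receptors, 21 were tested, of which 7 were higher and 3 lower with a median log2 change of 0.12. Over all tested genes, 22.4% were higher and 22.1% lower. Socs5, a SOCS-box protein that promotes EGFR degradation, was 2.48-fold higher (95% interval 2.15 to 2.87) by the authors' deposited table. The kinase gene Tnk2 was 2.12-fold higher (1.84 to 2.46), and Lrig1, a transmembrane inhibitor of ERBB receptors, was 1.91-fold higher (1.58 to 2.31) by the authors' deposited table. Cbl, the ubiquitin ligase that marks active EGFR for degradation, had a log2 change of 0.55 (SE 0.10) by the authors' deposited table. The 3 lower genes were the phosphatase genes Ptpn1 (-0.42, 0.14) and Ptpn2 (-0.38, 0.12) and the deubiquitinase gene Usp8 (-0.37, 0.09), as log2 changes and standard errors by the authors' deposited table. With a t distribution none of these 3 passed, and 5 of the list were higher, against 10.4% of all tested genes. With equal summed counts Lrig2 (Wald adjusted p = 0.00821), Socs4 (0.00959) and Ptprk (0.0245) were also called higher. Under that setting 28.2% of all tested genes were higher.

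Of 10 receptor partners and chaperones, 4 were higher and 3 lower with a median log2 change of 0.07. Over all tested genes, 22.4% were higher and 22.1% lower. Cd44, a hyaluronan receptor that can present heparin-binding ligands, was 1.93-fold higher (95% interval 1.79 to 2.08) by the authors' deposited table. Cd9, a tetraspanin that associates with the HB-EGF precursor, was 1.5-fold higher (1.30 to 1.73) and the syndecan gene Sdc4 1.47-fold higher (1.33 to 1.62) by the authors' deposited table. The kinase co-chaperone gene Cdc37 was at 0.26 (SE 0.08) on the log2 scale by the authors' deposited table. Erbin, whose product binds ERBB2, was lower at -0.48 (0.10), as were the chaperone genes Hsp90aa1 (-0.70, 0.14) and Hsp90ab1 (-0.32, 0.07) by the authors' deposited table. With a t distribution 3 of the list were higher, since the call of Cdc37 was lost (adjusted p = 0.0930, between 1.32e-05 and 1 over all alternatives). With a fold threshold of 0.5 on the log2 scale 1 was lower, against 13.3% of all tested genes. The share of all tested genes called higher with a t distribution was 10.4%.

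The relays below the receptors were split. Of 19 genes from adaptors to ERK, 6 were higher and 9 lower with a median log2 change of 0.13. The shares over all tested genes were 22.4% higher and 22.1% lower. The MEK genes Map2k2 (2.01-fold higher, 95% interval 1.71 to 2.36) and Map2k1 (log2 change 0.60, SE 0.09) rose with Araf (0.64, 0.11) and Nras (0.78, 0.14) by the authors' deposited table. Mapk3, which encodes ERK1, was 1.52-fold lower (1.37 to 1.70) and the docking protein gene Gab1 1.65-fold lower (1.42 to 1.92) by the authors' deposited table. Braf (log2 change -0.40, SE 0.09) and the phosphatase gene Ptpn11 (-0.31, 0.08) fell as well by the authors' deposited table. With equal summed counts the list had 10 higher and 5 lower genes, against 28.2% and 17.1% of all tested genes. With a t distribution the list had 4 and 2, against 10.4% and 10% of all tested genes.

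Of 18 genes of the PI3K, AKT, PLC and STAT branches, 5 were higher and 7 lower with a median log2 change of 0.03. The shares over all tested genes were 22.4% higher and 22.1% lower. The catalytic subunit gene Pik3ca was 1.74-fold higher (95% interval 1.45 to 2.08) and the regulatory subunit gene Pik3r1 1.52-fold lower (1.34 to 1.72) by the authors' deposited table. Eps8, an EGFR substrate that regulates actin, was 1.64-fold higher (1.44 to 1.87), and the other higher genes were Src (log2 change 0.60, SE 0.10), Crk (0.34, 0.07) and Pik3cb (0.33, 0.12) by the authors' deposited table. Akt2 (-0.33, 0.08) and Pdpk1 (-0.28, 0.09) were lower on the log2 scale by the authors' deposited table. With equal summed counts 2 of the list were lower, against 17.1% of all tested genes. With a t distribution 3 were higher and 1 lower, against 10.4% and 10% of all tested genes.

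Genes used as readouts and feedback inhibitors of ERK signalling were mostly higher, with 13 of 18 higher and 2 lower and a median log2 change of 0.94. Among all tested genes, 22.4% were higher and 22.1% lower. Earlier results of these data had shown the rise of Dusp4 and Ier3 and the fall of Myc, so the direction of the list is not independent of them. Etv5 and Etv4, ETS factors that ERK signalling induces, were 2.47-fold (95% interval 2.13 to 2.85) and 2.04-fold higher (1.81 to 2.30) by the authors' deposited table. Dusp6, the ERK phosphatase gene, was 1.80-fold higher (1.63 to 1.98), and Fosl1, an AP-1 subunit gene, was 2.25-fold higher (1.88 to 2.68) by the authors' deposited table. Dusp4 had a log2 change of 3.90 (SE 0.23) and Ier3 1.62 (0.10) by the authors' deposited table. The 2 lower genes were Spry1, a Sprouty inhibitor gene at a mean of 27.2 normalized counts (-1.29, 0.44), and Myc (-0.39, 0.12) by the authors' deposited table. Egr1 (0.19, 0.10), Fos (0.37, 0.22) and Spred3 (0.13, 0.19) did not pass by the authors' deposited table. Egr1 passed with equal summed counts (log2 change 0.29, Wald adjusted p = 0.0132). With a t distribution 12 were higher and 0 lower by the DESeq2 statistics, against 10.4% and 10.0% of all tested genes.

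**Figure D5:**
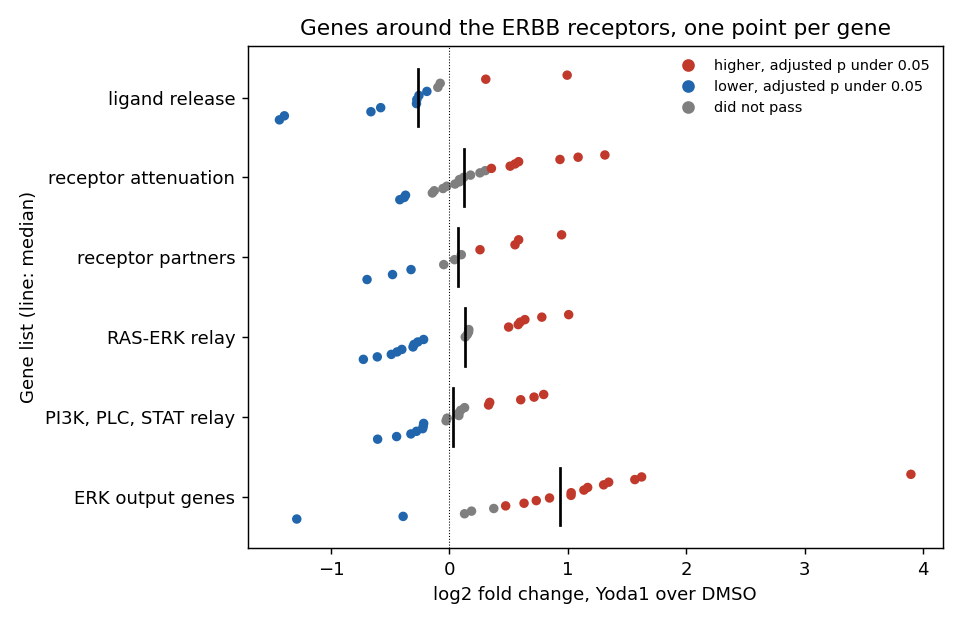
Each point is a tested gene at its deposited log2 change, each row is a gene list, and the vertical line is the median of the list. The ERK output genes have a median of 0.94, the ligand release genes -0.27, and the other lists lie between 0.03 and 0.13.

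Markers of the labelled cell type were present. Epithelial, endothelial, macrophage and adipocyte markers were low, and of the chondrocyte markers only Col2a1 and Sox9 were high. All 9 osteoblast markers had a row, with Col1a2 at a mean of 279469 normalized counts, although Alpl (47.3) and Bglap (4.70) had low means over both groups. Alpl was implied at 93.1 with DMSO and 1.545 with Yoda1. Of the 9 markers, 7 were lower and 1 higher with Yoda1 by the authors' deposited table. Over all tested genes, 22.1% were lower and 22.4% higher. Implied levels summed over the list were 33.3 with DMSO and 4.37 with Yoda1 for 8 epithelial markers, 6.50 and 4.64 for 6 endothelial markers, 16.4 and 29.6 for 6 macrophage markers and 4.76 and 8.14 for 6 adipocyte markers. Of these markers, 4, 3, 4 and 2 had a row. Most of the epithelial sums was Cdh1, implied at 31.7 with DMSO and 3.24 with Yoda1 (DESeq2 adjusted p = 2.86e-06). In the macrophage sums Csf1r was implied at 7.52 and 20.1 and did not pass (DESeq2 adjusted p = 0.113). Cd68, the other main part of the macrophage sums, was implied at 8.50 with DMSO and 8.94 with Yoda1. The epithelial sums thus mainly follow Cdh1, and the difference between the macrophage sums mainly follows Csf1r. Of the 6 chondrocyte markers, 4 had a row, led by Col2a1 (mean 9605 normalized counts) and Sox9 (2952). Comp (17.75) and Acan (0.328) were low, and Col9a1 and Matn1 had no row under these symbols. The summed implied level of this list was 15805 with DMSO and 9346 with Yoda1 in counts derived from the authors' deposited table. The part of these shifts in the members' values was not tested.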

How the data were processed

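RNA was sequenced from MC3T3-E1 cells with TruSeq RNA libraries, per the labels' protocols. The submitters' processing notes name Salmon, DESeq2 and GRCm39 and give no version. The deposited table holds a single comparison. Its mean normalized count is a signal averaged over the libraries by the authors. The log2 fold change was deposited by the authors with a standard error, and its direction, Yoda1 over DMSO, was taken from the name of the table. The Wald statistic is a score equal to the fold change over its standard error, and the p-value and adjusted p-value follow from it by the normal tail and Benjamini-Hochberg over 14653 rows, as a check of the deposited columns showed. The authors' class was rebuilt with 0 exceptions.

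Calls are the authors' adjusted p under 0.05. Intervals (95%), implied group means, and Benjamini-Hochberg adjustments under the alternatives were computed with scipy 1.17.1 and pandas 2.3.3 in Python 3.11.15, with functions tested on simulated data. Alternatives were filters (none, or a mean of at least 100), 3 centrings, a t distribution with 4 degrees of freedom, and fold thresholds. The depth of each library is unknown here; the deposited means add up to 19849773. No symbol of a member occurred more than once. Named list genes are up to 4 per direction with the smallest adjusted p, and all where 5 or fewer moved, except that Fosl1 and Etv4 were named after their values were seen. One gene that this rule names is not reported here. The members, lists and alternatives were chosen with earlier results of these data known. The series' design text is about human endothelial cells, so the sample labels were followed instead.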

Additional observations from a re-analysis of the deposited data

How the results depend on the processing

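Under all alternatives run, 3 to 5 members were higher, while the share of higher calls over all tested genes ran from 4.79% in the test against a log2 change of 0.5 to 29.8% with a mean of at least 100, so the range says nothing particular to the members. The member called lower, Nrg1, became 0 with an absolute log2 fold change above 1 required and in the test against 0.5. Of 100 tested genes in the pathway lists, 37 were higher and 32 lower, against 22.4% and 22.1% of all tested genes. With a mean of at least 100 required, these shares of tested genes were 29.8% and 28.4%. The lower count was 18 with equal summed counts, 9 with a t distribution, 9 with a fold threshold of 0.5 and 3 with one of 1, where the share of lower calls over all tested genes also fell, from 22.1% to 17.1%, 10.0%, 13.3% and 5.22%, and the higher count was 12 with a threshold of 1 (4.92% of all tested genes). In the test against 0.5 the counts were 15 higher and 2 lower (4.79% and 4.72% of all). The sign turned only for genes that had not passed: with equal summed counts, Egfr (0.072), Adam17 (0.027), Adam19 (0.0075), Eps15 (0.051), Gpc1 (0.057), Nck1 (0.086), Sh3kbp1 (0.083) and Stat5b (0.077), and Nck1 with trimmed-mean centring (0.0019), on the log2 scale. The centrings raise each log2 change by 0.11 at most, so only falls smaller than this could turn. Areg, Btc and Erbb3 had no value with a mean of at least 100. Why these counts moved was not tested.

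No paired analysis was possible because the table gives no values per library. For the same reason the alternatives that leave out a replicate or use edgeR were not run. Low counts limit what can be said of Areg, Btc, Erbb3, Epgn and Egf.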

Other observations

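The spread behind the Egfr comparison was large for its level. Its standard error of 0.19 exceeded that of 96.1% of the 615 tested genes whose mean lay within 1.1 times its own, whereas the share was 35.8% for Erbb2, 67.3% for Nrg1 and 32.7% for Errfi1. The window of 1.1 times, used for all comparisons of standard errors, was set after the data were seen. Which libraries carry the spread of Egfr was not analysed here.

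Of the 32851 RefSeq promoter windows, 36 (0.11%) held both the octamer TGACGTCA and TATAAA on the strand of the gene, and those of Areg and of the downstream start of Errfi1 are among them. This pair was noticed after the windows had been read, and its bearing on the rise of both genes was not tested.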
